A study of Mus musculus with 12 samples.

Results

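Hepatocytes clear drugs, bile pigments and sterols by moving them from blood to bile, and the proteins that carry out this traffic sit on opposite faces of the cell. Solute carriers of the organic anion transporting polypeptide family, such as Slco1a1 and Slco1b2, take up bile salts, bilirubin conjugates, steroid conjugates and drugs from the blood. ATP-binding cassette (ABC) transporters export their cargo at the cost of ATP, into bile at the canalicular membrane (Abcb4, Abcb1a, Abcc2, Abcg2 and the Abcg5 and Abcg8 pair) or back towards blood at the basolateral membrane (Abcc3 and Abcc6).

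These 10 transporter genes were taken by name from the mouse liver data, out of 55487 genes in the input count file. A total of 9 of the 10 were found in the 10607-gene table that pairs RNA-seq with ribosome profiling. Abcb1a, a P-glycoprotein gene, was read from the input count file alone. METTL5 is the methyltransferase that places m6A on 18S ribosomal RNA, and the study profiled livers without it to ask how mRNA levels and ribosome occupancy differ.

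The WT group was 3 wild type mice and the KO group was 3 METTL5 KO mice, with 1 WT and 1 KO animal from each of 3 litters. The KO was whole-body: exon 2 of Mettl5 was floxed in C57bl/6 x 129S6 F1 hybrid ES cells, the line was backcrossed to B6, and the deletion came from B6.C-Tg(CMV-cre)1Cgn/J strain. Each frozen liver was lysed in cycloheximide, a translation elongation inhibitor, and split, so that total RNA gave an input library and MNase-digested monosomes gave a library of footprints (RPF, ribosome-protected fragments), giving 12 libraries. Age and Cre status of the individual mice were not given in the sources used here.

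The input libraries held 8326325 to 11825643 counts, of which 45.8% to 63.8% fell on a single feature, CT010467.1. In the paired table, where 1 factor per library scales whole reads, 2398804 to 5121304 input reads and 4623826 to 9184242 RPF reads were listed. Mettl5 itself had normalized RPF values of 58.4, 47.8 and 53.1 in WT mice 1, 2 and 3 and of 8.34, 5.53 and 9.56 in KO mice 1, 2 and 3. The groups did not overlap, and the RPF log2 fold change was −2.64 (SE 0.36, p after adjustment = 0.00504, limma). Counts over the whole gene include exons outside the deleted one. Hepatocyte markers summed to 20634 to 28367 CPM (TMM-normalized, depth-scaled counts) in WT and 21952 to 23409 CPM in KO input. Cholangiocyte markers summed to 6.34 to 8.11 CPM in WT and 6.54 to 9.39 CPM in KO. Of this list, Krt19 had 0 to 3 and Krt7 0 to 2 counts over all 6 mice. Epcam had 1 to 10, Sox9 12 to 35 and Spp1 34 to 97 counts. In whole liver, fewer cells of a type and less RNA per cell cannot be told apart.

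Start codons are shown first, from 1 transcript per gene, whereas the RPF values below were given per gene. In each line the start codon is in capitals, with 9 bases of leader before it and 6 coding bases after it, from the GENCODE M21 transcript with the coding sequence used here. The first 4 genes are those with all 3 KO RPF values below all 3 WT values, and the last 2 are the members with C at the third base before the start codon.
Slco1a1: aagaacaccATGgaagaa
Slco1b2: tgttcaatcATGgaccaa
Abcb4: caggctgagATGgatctt
Abcc2: gaaatcacgATGgacgaa
Abcc3: cagagccacATGgaccgc
Abcc6: ctcagactgATGaacaga
The base 3 before the start codon was A or G in 84.0% of 20355 mouse transcripts, 1 per gene name, with at least 9 bases of leader. It was A or G in 8 of the 10 members and C in Abcc3 and Abcc6. The sequence is given as a description of the members and was not tested against the RPF changes.

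Among WT livers, expression per unit of length differed widely between the transporters. Slco1b2 led in input at 73.0 ± 8.79 CPM per kb of exon (SD, n = 3), followed by Slco1a1 at 33.4 ± 1.74 and Abcc2 at 25.0 ± 2.47. Abcc3 stood at 15.4 ± 1.86, Abcc6 at 8.81 ± 0.556 and Abcb4 at 8.66 ± 0.714 CPM per kb of exon. Abcc6 and Abcb4 could not be ordered, since their 3 WT values overlapped. The sterol exporter subunits Abcg8 (5.63 ± 0.954) and Abcg5 (5.28 ± 0.946) also overlapped, and Abcg2 came below both at 3.40 ± 0.327 CPM per kb of exon. Abcb1a was close to the limit of detection, with 6, 5 and 0 counts in WT mice 1, 2 and 3 and 18, 6 and 1 counts in KO mice 1, 2 and 3. Scaled for depth, these were 0.825, 0.587 and 0 CPM in WT and 0.923, 0.604 and 0.120 CPM in KO. No fold change is given for Abcb1a, which was below the expression filter and has the closely related neighbour Abcb1b.

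On ribosomes the order was partly different. In RPF normalized reads per kb of coding sequence, Slco1b2 was again first in WT at 4946 ± 150 (SD, n = 3), then Slco1a1 at 1762 ± 175. Abcc2 (686 ± 72.5) and Abcg2 (631 ± 98.1) overlapped, so that Abcg2 ranked 9 of 10 in input and 4 of 9 in RPF. The exon model of Abcg2 is 8153 bases long and its coding sequence 1971 bases, so the per-length input value of Abcg2 depends on how much of that model the liver transcribes. Abcb4 followed at 444 ± 44.1, with all 3 WT values below those of Abcg2. Abcc3 (311 ± 30.7), Abcg8 (275 ± 41.3) and Abcg5 (241 ± 9.46) overlapped with their neighbours in the order. Abcc6 was last at 193 ± 18.9 RPF normalized reads per kb of coding sequence.

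The comparison of KO with WT livers asked whether loss of METTL5 went with other mRNA levels, other RPF levels, or another RPF to input ratio (translation efficiency, TE) of each transporter. None of the members passed an adjusted p of 0.05 in any of the 3 measures. In input 0 of 9 tested members were called by edgeR's quasi-likelihood test, against 0% of 10057 genes. In RPF 0 of 9 were called by limma, against 0.489% of 8994 genes, and in TE 0 of 9, against 0%. At an unadjusted p under 0.05 there were 348 genes in input, 3.46% of those tested, and 423 in TE, 4.7%. Of the members, 0 of 9 reached that level in input and 1 of 9 in TE.

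In RPF 6 of 9 members had a negative log2 fold change, which in 9 genes is near the 54% of all genes tested. The median of the members was −0.22 against −0.03 over all genes. An unadjusted p under 0.05 with a lower KO level was found for 4 of the 9, Slco1a1, Slco1b2, Abcb4 and Abcc2, against 7.99% of all genes. With a trend of coding GC content removed from each library, 2 of the 9, Slco1a1 and Abcb4, had such a p, against 5.61% of 8986 genes. In the same 4 all KO values lay below all WT values, which held for 12.9% of all genes. No member was higher in KO without overlap in RPF, against 6.97% of all genes. In input 4 of 9 members were negative and 5 positive, with a median of 0.03 beside 0.00 over all genes.

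**Figure D1:**
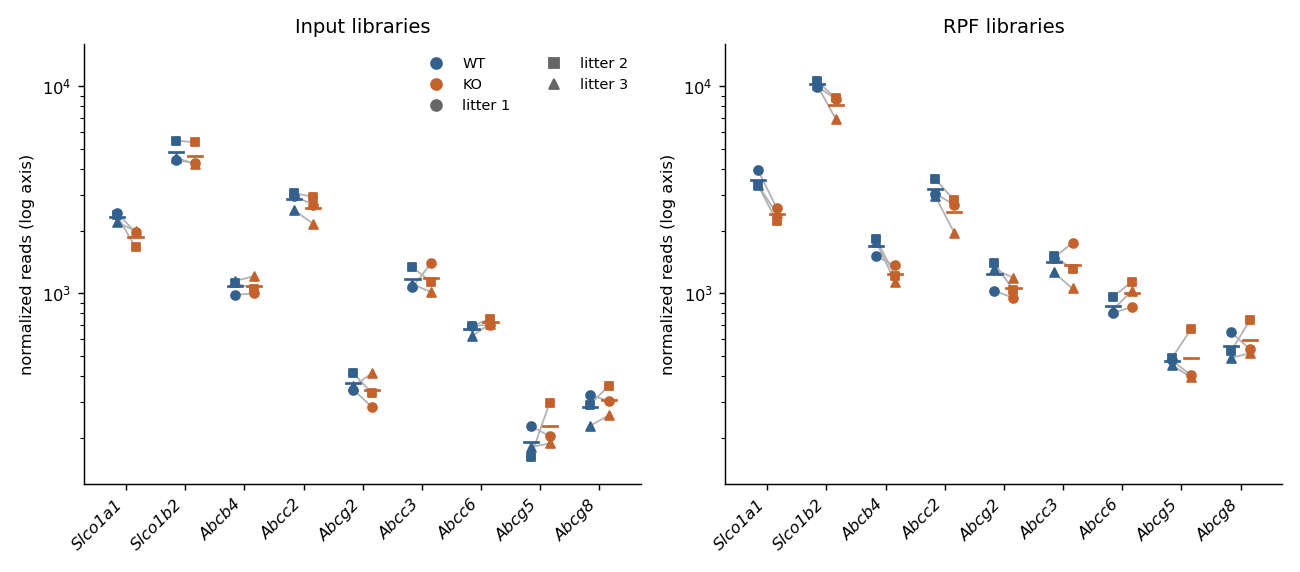
Normalized reads (log axis) of 9 transporters in the input libraries (left) and the RPF libraries (right); blue points are WT mice, orange points KO mice, marker shapes give the litter, grey lines join littermates and bars are the means of 3 mice. In RPF the KO points of Slco1a1, Slco1b2, Abcb4 and Abcc2 all lie below the WT points, while in input only Slco1a1 is separated downwards.

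Slco1a1, the sinusoidal uptake carrier known as Oatp1a1, had the lowest RPF value in KO relative to WT. Its normalized RPF was 3947, 3333 and 3342 in WT mice 1, 2 and 3 and 2577, 2235 and 2432 in KO mice 1, 2 and 3. Every KO mouse was below every WT mouse, by −0.62, −0.58 and −0.46 on the log2 scale within litters 1, 2 and 3. The KO level was 1.46 times lower, with a log2 fold change of −0.55 (SE 0.13, 95% confidence interval −0.82 to −0.28, p after adjustment = 0.0597, limma). With the litter as a block the same change had a limma adjusted p of 0.0183 and passed the threshold. Without KO mouse 1 it was −0.60 with an adjusted p of 0.0339, and with a minimum mean of 50 in each assay the adjusted p was 0.0477. Omission of any other mouse gave limma adjusted p values of 0.139 to 0.242. The RPF columns alone, without the litter block, gave 0.123, and edgeR on whole reads gave 0.0643. After a trend with coding GC content was removed from each library, the change was −0.30 with an adjusted p of 0.462, and of 0.285 with the litter block as well.

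Input of Slco1a1 also lay lower in KO. Its input values were 183, 179 and 166 CPM in WT mice 1, 2 and 3 and 154, 126 and 151 CPM in KO mice 1, 2 and 3. The groups did not overlap, a separation downwards that 4.34% of 10057 genes shared, and the log2 fold change was −0.30 (SE 0.14, edgeR adjusted p = 0.999). The TE of Slco1a1, as the ratio of normalized RPF to normalized input, was 1.61, 1.39 and 1.51 in WT and 1.31, 1.34 and 1.21 in KO. These ratios did not overlap either, yet the TE log2 fold change of −0.23 (SE 0.18, 95% confidence interval −0.61 to 0.16) was not called, with a limma adjusted p of 0.998. Without the GC trend the TE change of Slco1a1 was −0.03.

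Slco1b2, the liver-restricted uptake carrier for bilirubin conjugates and statins, had the highest level of the members in every library. Normalized RPF was 9963, 10568 and 10142 in WT mice 1, 2 and 3 and 8683, 8760 and 6927 in KO mice 1, 2 and 3. The 3 KO values were lower and KO mouse 3 was the lowest, and the log2 fold change was −0.34 (SE 0.14, p after adjustment = 0.304, limma). Input of Slco1b2 was nearly level, at 329, 409 and 341 CPM in WT and 333, 406 and 317 CPM in KO, with a log2 fold change of −0.03 (SE 0.15). Without the GC trend its RPF change was −0.05, and the TE change of −0.28 (SE 0.20) became −0.06. Slco1b2 lies at chr6:141629518-141686646 and Slco1a1 at chr6:141907282-141946962 (mm10, opposite strands), so these carriers are near neighbours in one gene cluster.

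Abcb4, the canalicular phospholipid floppase that supplies phosphatidylcholine to bile, had the most negative TE change of the members. The gene lies at chr5:8893717-8959231 on the plus strand, downstream of Abcb1a in the same direction. Its normalized RPF was 1508, 1822 and 1774 in WT mice 1, 2 and 3 and 1364, 1218 and 1135 in KO mice 1, 2 and 3. The groups did not overlap and the log2 fold change was −0.46 (SE 0.13, 95% confidence interval −0.74 to −0.18, p after adjustment = 0.125, limma). With the litter block the adjusted p was 0.0549, and without the GC trend the change was −0.34.

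In input Abcb4 gave 73.7, 83.9 and 86.3 CPM in WT and 78.0, 79.7 and 91.1 CPM in KO, which overlapped, with a log2 fold change of 0.03 (SE 0.14). Its TE ratio was 1.53, 1.63 and 1.55 in WT mice 1, 2 and 3 and 1.36, 1.16 and 0.938 in KO mice 1, 2 and 3. All KO ratios lay below all WT ratios, as for 7.34% of genes tested, and 3 of 9 members (Abcb4, Abcc2 and Slco1a1) were separated in this way. No member was separated upwards in TE, against 6.09% of genes, and 8 of 9 members had a negative TE change, against 51.3%. Among these, Abcg8 (−0.02, SE 0.25), Abcc3 (−0.09, SE 0.24) and Abcg2 (−0.10, SE 0.23) lay nearer to 0 than their SE. The signs come from the same 6 mice and are not independent. The TE log2 fold change of Abcb4 was −0.46 (SE 0.19, 95% confidence interval −0.86 to −0.07) at an unadjusted limma p of 0.0248 and an adjusted p of 0.998. With each mouse and litter as blocks, its TE adjusted p was 0.234. The TE change of Abcb4 was −0.36 without the GC trend, with a 95% confidence interval of −0.75 to 0.04 that crossed 0.

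Abcc2, which exports bilirubin glucuronides and glutathione conjugates into bile, was also lower in KO RPF and lies at chr19:43782192-43840740 on the plus strand. Normalized RPF was 3029, 3560 and 2940 in WT mice 1, 2 and 3 and 2677, 2817 and 1962 in KO mice 1, 2 and 3. KO mouse 3 was again the lowest, the log2 fold change was −0.37 (SE 0.16, p after adjustment = 0.319, limma), and without KO mouse 3 it was −0.20. Input of Abcc2 overlapped between the groups, at 222, 229 and 189 CPM in WT and 209, 221 and 164 CPM in KO. Its TE ratio was 1.02, 1.16 and 1.17 in WT and 1.00, 0.965 and 0.903 in KO, with a TE log2 fold change of −0.22 (SE 0.22) that was −0.11 without the GC trend.

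Abcg2, the breast cancer resistance protein that exports urate and sulphate conjugates, showed overlapping groups. Normalized RPF was 1027, 1399 and 1305 in WT mice 1, 2 and 3 and 952, 1036 and 1192 in KO mice 1, 2 and 3. KO was below WT within each litter, and the log2 fold change was −0.22 (SE 0.16, p after adjustment = 0.574, limma). After removal of the GC trend the RPF change of Abcg2 was 0.00. The input change was −0.10 (SE 0.16) and the TE change −0.10 (SE 0.23).

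The basolateral exporters showed overlapping groups in RPF. Abcc3, which returns glucuronides to blood, gave normalized RPF of 1482, 1523 and 1262 in WT mice 1, 2 and 3 and 1755, 1306 and 1056 in KO mice 1, 2 and 3. KO mouse 1 was the highest of all 6 and KO mouse 3 the lowest, so the groups overlapped, with a log2 fold change of −0.08 (SE 0.17, p after adjustment = 0.885, limma). The same KO mouse 1 was the highest for Abcc3 input, at 109 CPM against 76.3 to 100.0 CPM in the other 5 mice.

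Abcc6, an ATP-releasing exporter whose loss causes ectopic calcification, had the most positive RPF change of the members. Normalized RPF was 803, 962 and 831 in WT mice 1, 2 and 3 and 861, 1136 and 1031 in KO mice 1, 2 and 3. KO exceeded WT in each litter but the groups overlapped, with a log2 fold change of 0.22 (SE 0.13, 95% confidence interval −0.06 to 0.50, p after adjustment = 0.5, limma). Its RPF change was 0.33 without KO mouse 1 and 0.13 without KO mouse 2. Input of Abcc6 was 52.4, 52.1 and 46.7 CPM in WT and 54.9, 57.1 and 53.8 CPM in KO. Abcc6 was the 1 member higher in KO input without overlap, as for 4.23% of genes tested, by a log2 fold change of 0.13 (SE 0.13, edgeR adjusted p = 0.999).

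Abcg5 and Abcg8 encode both subunits of the heterodimer that secretes cholesterol and plant sterols into bile, and they are transcribed in opposite directions from a shared promoter. Their nearest RefSeq start sites on chromosome 17 lie 110 bp apart, at 84683011 for Abcg5 (minus strand) and 84683121 for Abcg8 (plus strand). Abcg8 has another RefSeq window, chr17:84676052-84676351, whose start lies farther away and was not used for this distance. The RefSeq promoter window of this Abcg8 start, chr17:84682871-84683170 (GRCm38.p6, plus strand), is shown with the 109 bases between the start sites in capitals.
Abcg5 and Abcg8: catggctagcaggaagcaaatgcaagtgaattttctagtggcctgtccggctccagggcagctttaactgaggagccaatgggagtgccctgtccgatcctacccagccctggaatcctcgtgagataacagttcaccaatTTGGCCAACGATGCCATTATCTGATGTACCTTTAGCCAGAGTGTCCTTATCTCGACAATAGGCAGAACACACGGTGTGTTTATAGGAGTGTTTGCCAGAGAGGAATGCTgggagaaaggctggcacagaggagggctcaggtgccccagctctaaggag
TATAAA, the letters of a TATA box, was found 1 time in the 300-base window on either strand, and this match lay between the start sites. Such a match occurs in 13.6% of 32851 mouse promoter windows of 300 bases. CCAAT was found 2 times in the window and 0 times between the start sites, and 37.4% of windows hold it. RefSeq windows were matched for 8 of the 10 members and were not found for Abcc3 and Abcc6.

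For both genes of the pair, 1 KO mouse stood above the other 5. Normalized RPF of Abcg5 was 475, 487 and 451 in WT mice 1, 2 and 3 and 403, 671 and 394 in KO mice 1, 2 and 3. Normalized RPF of Abcg8 was 648, 526 and 489 in WT and 539, 743 and 514 in KO. That animal was KO mouse 2, the highest of the 6 for both genes in input as well, and the groups overlapped. The RPF log2 fold change was 0.01 (SE 0.21) for Abcg5 and 0.10 (SE 0.18) for Abcg8, and without KO mouse 2 these were −0.24 and −0.06. Per coding kb, the Abcg5 to Abcg8 RPF ratio was 0.756, 0.955 and 0.952 in WT and 0.772, 0.932 and 0.790 in KO, which overlapped. The annotated gene bodies overlap on opposite strands, and the study counted input with strand.

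**Figure D2:**
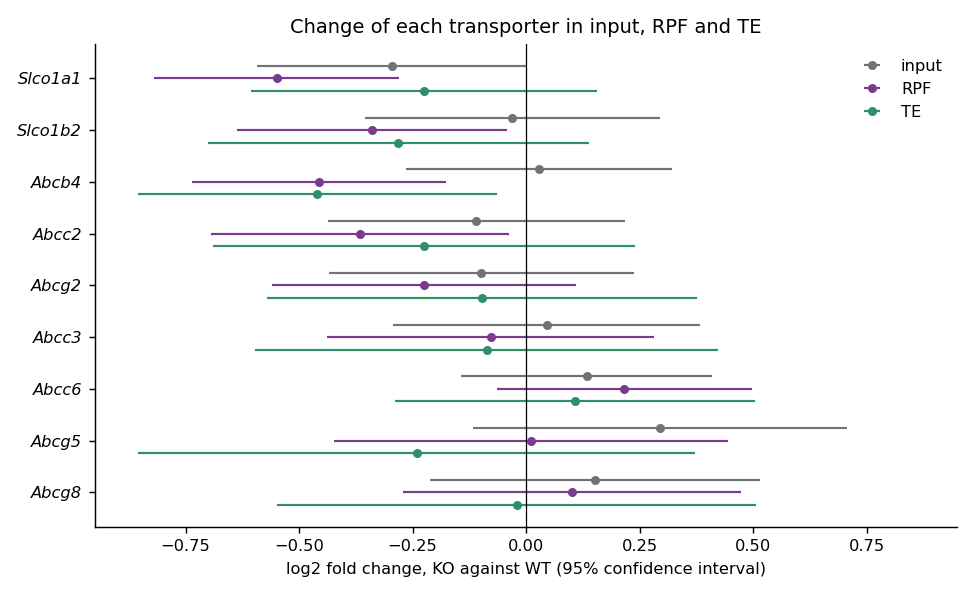
Log2 fold change of KO against WT (points) with its 95% confidence interval (bars) for 9 transporters in input (grey, edgeR), RPF (purple, limma) and TE (green, limma). The RPF intervals of Slco1a1, Slco1b2, Abcb4 and Abcc2 lie below 0, and the only TE interval below 0 is that of Abcb4.

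The 5 members with coding GC under 50%, Slco1b2 (40.2%), Slco1a1 (41.9%), Abcg2 (43.4%), Abcc2 (47.9%) and Abcb4 (48.4%), had a median RPF log2 fold change of −0.37. The 4 members above 50%, Abcg5 (51.2%), Abcc3 (54.9%), Abcg8 (54.9%) and Abcc6 (59.8%), had a median of 0.06. Over all genes with a value, the medians were −0.18 for the 3190 genes under 50% and 0.06 for the 5796 genes at or above it. Pearson's r between GC content and RPF change was 0.83 over the 9 members and 0.43 over 8986 genes, as descriptions across genes of the same 6 RPF libraries, which are not independent replicates. With the GC trend removed in each library, Abcb4 (−0.34), Slco1a1 (−0.30) and Abcc2 (−0.24) were the most negative members, while Slco1b2, Abcg2 and Abcc6 moved to −0.05, 0.00 and 0.01. The part of GC content in the RPF changes was not tested further.

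**Figure D3:**
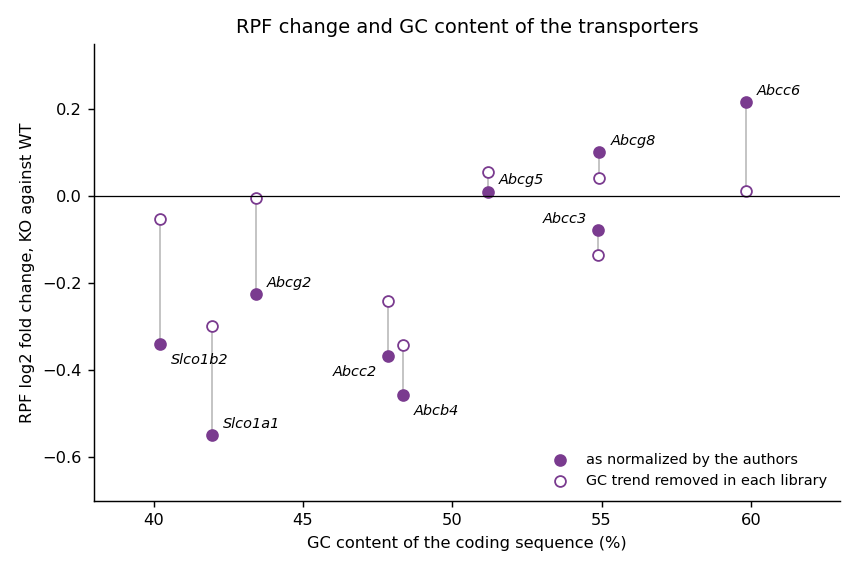
RPF log2 fold change of KO against WT for 9 transporters against the GC content of the coding sequence (%); filled points use the values as normalized by the authors, open points the values after a GC trend was removed in each library, and grey lines join the same gene. The 5 members under 50% GC are negative before removal, and Slco1b2 and Abcg2 come close to 0 after it.

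Slco1a1 is predominant in male mouse liver, so sex-dependent genes were read beside it. Xist had 0 counts in all 6 input libraries and the Y-linked Ddx3y had 261 to 728 counts, so all 6 mice carried the transcripts of males. The 6 female-biased liver genes had 0 to 6 counts each. Of 6 male-biased liver genes, 6 were lower in KO RPF, against 54% of all genes, and their log2 fold changes ran from −1.83 to −0.25 around a median of −0.82. Mup20, a major urinary protein gene, had normalized RPF of 1011, 1721 and 1672 in WT mice 1, 2 and 3 and of 359, 346 and 517 in KO mice 1, 2 and 3. Its groups did not overlap and it fell by 1.83 on the log2 scale (SE 0.28, p after adjustment = 0.012, limma), the only gene of this list that passed the threshold. In input the list had 5 lower genes, a median of −0.50 and summed levels of 622 to 798 CPM in WT and 358 to 661 CPM in KO. The part of the male-biased programme in the Slco1a1 result was not tested.

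**Figure D4:**
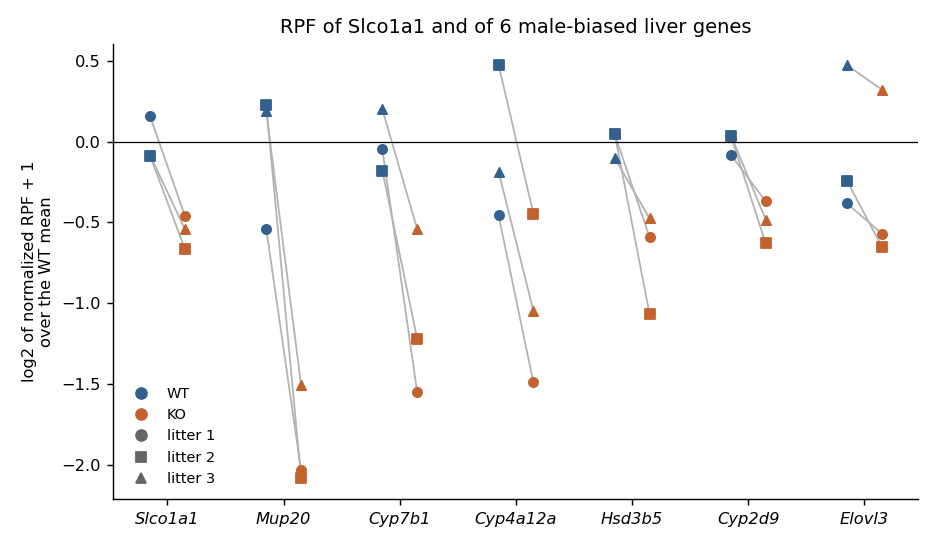
Log2 of normalized RPF plus 1 over the WT mean for Slco1a1 and 6 male-biased liver genes; blue points are WT mice, orange points KO mice, shapes give litters and grey lines join littermates. In each of the 7 genes every KO mouse lies below its WT littermate.

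Other carriers of the same membranes were read from a fixed list of 15. Of these, 11 were tested, and 0 passed the adjusted threshold in input, RPF or TE. Their RPF median was −0.07, with 7 lower and 4 higher. Atp8b1, a phospholipid flippase, stood at −0.17 (SE 0.15) and Slc10a1, the sodium-dependent bile salt uptake carrier, at −0.17 (SE 0.14) in RPF. Slc51a had 0 counts in all 6 input libraries and Slc51b had 0 to 2.

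Transcription factors that control hepatic transporters formed a list of 13, all tested, with 0 called in input, RPF or TE and an RPF median of 0.00. Ahr, the aryl hydrocarbon receptor, had normalized RPF of 158, 195 and 276 in WT mice 1, 2 and 3 and 276, 368 and 308 in KO mice 1, 2 and 3. The groups met at WT mouse 3 and KO mouse 1, and the RPF log2 fold change was 0.62 (SE 0.23, p after adjustment = 0.249, limma), beside 0.75 (SE 0.22) in input. Nr1h2, the liver X receptor beta gene, stood at 0.59 (SE 0.24) and Ppara, the fatty acid receptor, at 0.27 (SE 0.14) in RPF. Of 7 genes that anchor or recycle membrane transporters, 0 were called. Rab11a, a recycling endosome GTPase, had an RPF log2 fold change of −0.51 (SE 0.19, p after adjustment = 0.253, limma), Rdx, which tethers Abcc2 to actin, −0.32 (SE 0.15), and the scaffold gene Slc9a3r1 0.24 (SE 0.14).

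None of the genes in the 8 marker lists passed the adjusted threshold in RPF. Lyve1, of the sinusoidal endothelial list, had an RPF log2 fold change of 1.39 (SE 0.51, p after adjustment = 0.239, limma). Of the 5 endothelial genes tested in RPF, 2 were higher in KO and 3 lower, with Clec4g lowest at −0.32 (SE 0.16). Dcn and Col1a1, of the stellate list, had RPF log2 fold changes of 0.55 (SE 0.15, p after adjustment = 0.0934, limma) and 0.97 (SE 0.27, p after adjustment = 0.107, limma). The other 2 of the 4 stellate genes tested were lower, Rgs5 at −0.46 (SE 0.42) and Lrat at −0.17 (SE 0.44). The stellate list summed to 35.3 to 53.2 CPM in WT and 39.8 to 49.7 CPM in KO input, and the Kupffer cell list to 52.1 to 77.0 and 45.2 to 68.0 CPM. The endothelial list summed to 68.0 to 75.3 CPM in WT and 67.4 to 79.0 CPM in KO, the lymphocyte list to 2.27 to 5.91 and 3.01 to 4.72, and the exocrine pancreas list to 0 to 0.296 and 0.101 to 0.241 CPM. Erythroid transcripts reached 16.3 CPM in WT and 14.4 CPM in KO. The part of these cells in the transporter values was not tested.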

How the data were processed

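Per the labels and the study's methods, the authors trimmed input reads, aligned them to mm10 with STAR 2.7.3a, kept unique alignments and counted read pairs per gene with strand by featureCounts (version 1.6.0 in the labels), and deposited these counts. RPF reads were freed of rRNA and mapped with RiboToolkit. The paired table was deposited under an RPKM name, but its 12 columns are a normalized signal: 100% of values were whole reads times 1 factor per library (tolerance 0.1 read), with no gene length. The table's fold changes and p-values from the authors' own comparison were not used. The same replicate numbers mark littermates in the labels. Deviations from group means correlated at 0.08 to 0.13 in input and 0.14 to 0.24 in RPF for littermates, and at −0.12 to 0.02 and −0.24 to 0.08 for other pairs.

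Input counts were tested with edgeR 4.0.16 (TMM, filterByExpr, quasi-likelihood). For RPF and TE, limma 3.58.1 (trend, robust) was fitted to log2(value + 1) in 1 model of 4 groups, after dropping genes whose mean was under 10 in either assay, so fold changes of low genes are understated. P-values were adjusted by Benjamini and Hochberg over all genes tested. DESeq2 1.42.0, other scalings, pseudocounts and filters, litter and mouse blocks, removal of a GC trend (spline with 4 degrees of freedom, per library), the count test on whole reads and omission of each mouse served as alternatives. Scripts were tested on simulated data in R 4.3.3. The 10 members were named in full. Of other lists, genes with an adjusted p under 0.05 were named, otherwise the 3 with the smallest p in RPF. A gene that this rule names among the other carriers is not reported here. Members and lists were chosen with earlier results of these data known. Levels per length used merged exon lengths of the count file and coding lengths of GENCODE M21. Promoter windows came from RefSeq (GRCm38.p6).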

Additional observations from a re-analysis of the deposited data

How the results depend on the processing

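No member was called in input or TE under any alternative run. In RPF, 1 member (Slco1a1) was called with the replicate block of litter, with a minimum mean of 50, at an adjusted p of 0.1, and in the 6 RPF columns alone with the litter block, the last chosen after the data were seen. Leaving out 1 mouse gave 0 to 1 members in RPF, the 1 without KO mouse 1. The block changed no other member's call. Over all genes, RPF calls were 44, and became 236 with the litter block, 23 in the RPF columns alone, 353 there with the block, 15 without the GC trend, 67 without the trend and with the block, 144 at an adjusted p of 0.1, and 0 to 226 without 1 mouse, the 0 without KO mouse 2 and the 226 without KO mouse 1. Input calls were 0, and became 1 with DESeq2, 30 with no count filter, 2 with the block and 0 to 21 without 1 mouse, the 21 without KO mouse 2. TE calls were 0, and became 1 with the block, 9 with mouse and litter blocks, 1 without the GC trend and with the block.

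Of 405 member values under alternatives, 20 changed sign and 4 gained a call, all 4 those of Slco1a1. Removing the GC trend turned TE of Abcc6 to −0.0821 and of Abcg2 to 0.0762, with or without the block. The other sign changes followed omission of 1 mouse. The ranges over omitted mice were −0.0468 to 0.0809 for Abcb4, −0.20 to 0.00696 for Abcc2, −0.11 to 0.15 for Abcc3, −0.25 to 0.0231 for Abcg2 and −0.15 to 0.0710 for Slco1b2 in input. In RPF they were −0.27 to 0.0947 for Abcc3, −0.24 to 0.14 for Abcg5 and −0.0648 to 0.22 for Abcg8, and in TE −0.15 to 0.00593 for Abcc3 and −0.0817 to 0.0412 for Abcg8. The cause of these shifts was not tested. With 0 to 18 counts per library, Abcb1a was too sparse for a comparison between genotypes.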
